A study of Rattus norvegicus with 60 samples.

Results

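The 13 protein-coding genes of the rat mitochondrial genome were followed in liver RNA of male Sprague-Dawley rats that received water or perfluorooctanoic acid (PFOA), a perfluorinated surfactant, by oral gavage. They were taken as every row of the deposited count table whose gene name begins with Mt-, which gave 13 of 32883 rows: Mt-nd1, Mt-nd2, Mt-nd3, Mt-nd4, Mt-nd4l, Mt-nd5 and Mt-nd6 (subunits of complex I), Mt-cyb (complex III), Mt-co1, Mt-co2 and Mt-co3 (complex IV), and Mt-atp6 and Mt-atp8 (complex V). Of these, 12 had enough reads to be tested and Mt-nd4 did not. No ribosomal or transfer RNA carries the prefix, so the values below are for messenger RNAs.

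The rats were housed singly and dosed daily with water (the vehicle) or with PFOA at 1, 5 or 15 mg/kg in a gavage volume of 10 ml/kg. Livers were collected after 7, 14 or 28 days of dosing. Each of the 12 groups held 5 rats, every rat gave 1 library, and each day had its own vehicle group. The design text gives an age of 5 to 6 weeks, and the sample records give 7 to 8, 8 to 9 and 10 to 11 weeks for the 3 days. No genotype beyond the strain and no second treatment is named for any group. RNA of flash-frozen liver was sequenced as stranded polyA libraries.

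The mitochondrial genome is a small circle whose genes are transcribed as long precursors from both strands and then cut at the transfer RNAs that lie between them. Its messenger RNAs all encode core subunits of the machinery of oxidative phosphorylation, and these assemble with many subunits encoded in the nucleus. Mt-nd6 is the one messenger RNA read from the opposite strand to the others. Hepatocytes are rich in mitochondria, and PFOA is known in rodents as an activator of PPARα, the nuclear receptor that governs fatty acid oxidation in liver.

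Total reads per library ran from 7965497 to 24770119. Within groups, libraries differed along a strong shared axis, on which cytosolic ribosomal protein genes went down as the library score went up. Of the variance within groups this axis carried 59.0%. The score, a mean of standardized log2 levels of 500 genes, was computed without the Mt- rows. It ran from -2.33 to 1.29 over the 60 libraries, and 3 libraries lay below -1.5 (replicate 1 at 5 mg/kg on day 7, replicate 5 at 5 mg/kg on day 14 and replicate 3 at 15 mg/kg on day 14). Results are therefore given without the score and, where a call changes, with it as a covariate. The score was made from these same libraries, so more calls with it follow in part from how it was made. It can also carry effects of dose on its genes. The tissue label was checked against markers: in CPM (counts scaled to the usual common library total), 10 hepatocyte marker genes summed to between 63789 and 276911 in the 60 libraries, while the 6 muscle markers together stayed at or below 1.51 CPM and none had enough reads to be tested.

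At 15 mg/kg, mitochondrially encoded messenger RNAs made up a larger part of the liver's polyA RNA on all 3 days. In vehicle rats the Mt- rows took 1.86%, 5.25%, 1.66%, 2.31% and 5.03% of all reads on day 7, 3.37%, 3.85%, 3.50%, 3.16% and 3.19% on day 14, and 2.74%, 3.16%, 4.60%, 4.21% and 2.66% on day 28. Under 15 mg/kg they took 7.53%, 6.31%, 4.55%, 10.3% and 13.8% on day 7, 8.46%, 7.37%, 9.54%, 9.76% and 11.7% on day 14, and 11.2%, 12.8%, 8.54%, 10.7% and 12.6% on day 28. On days 14 and 28 every library at 15 mg/kg lay above every vehicle library, and on day 7 the groups overlapped, with 4 of 5 treated libraries above the highest vehicle library. Means rose from 3.22 ± 1.77% to 8.50 ± 3.64% on day 7, from 3.42 ± 0.28% to 9.37 ± 1.63% on day 14 and from 3.47 ± 0.88% to 11.2 ± 1.72% on day 28 (SD, n = 5). Two-sided exact permutation tests, adjusted over the 9 comparisons of a dose with vehicle, gave adjusted p = 0.0429, 0.0238 and 0.0238 for differences of 5.28, 5.96 and 7.70 percentage points. The smallest unadjusted p that 5 against 5 allows is 0.00794. The day 7 difference is the least certain of the 3: without replicate 5 at 15 mg/kg it was 3.95 percentage points, with an adjusted p of 0.0816 by the exact test, and leaving out replicate 1 or 4 at 15 mg/kg or any 1 of the 5 vehicle libraries of that day also ended that call. More of these RNAs and less of all others cannot be told apart in a share, and in whole liver fewer cells of a type and less RNA per cell cannot be told apart.

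**Figure D1:**
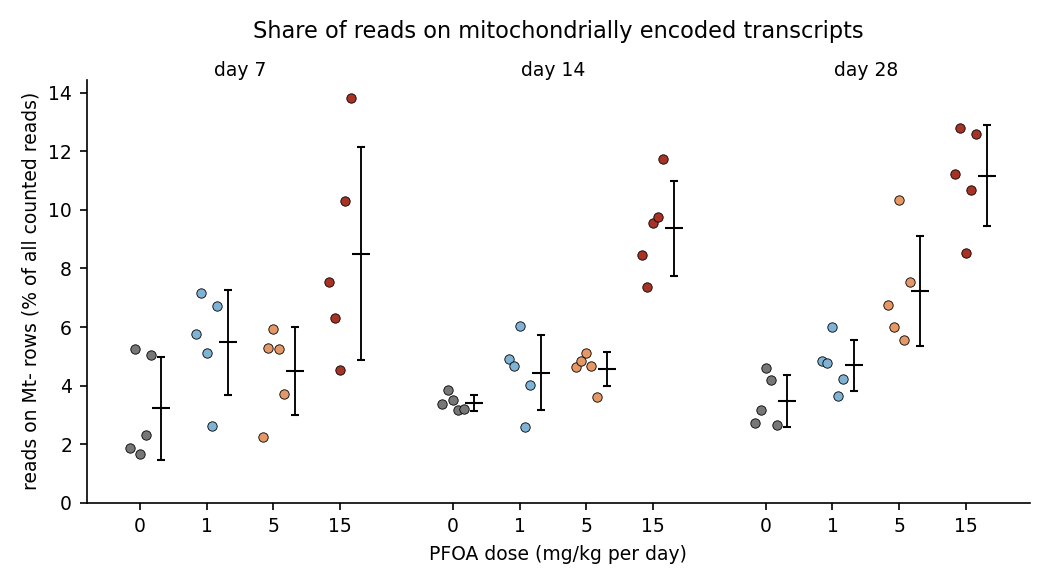
Percent of all counted reads that fell on the 13 Mt- rows (vertical axis) in each library, by dose (horizontal axis, mg/kg per day) and day; points are single rats, the dash with bars is the mean ± SD of 5. All points at 15 mg/kg on days 14 and 28 lie above the vehicle points of their day, and vehicle means stay between 3.22% and 3.47%.

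The lower doses gave smaller differences. At 5 mg/kg the share was 2.24%, 5.30%, 5.95%, 5.24% and 3.72% on day 7, 4.64%, 4.83%, 5.13%, 4.68% and 3.61% on day 14, and 6.76%, 5.99%, 10.3%, 5.56% and 7.53% on day 28. All 5 libraries on day 28 exceeded the vehicle range, 4 of 5 did so on day 14 and 2 of 5 on day 7. The exact test passed on day 28 (3.76 percentage points higher, adjusted p = 0.0238) and on day 14 (1.16 points, adjusted p = 0.0357) but not on day 7 (1.26 points, adjusted p = 0.246). At 1 mg/kg the share was 5.77%, 7.15%, 5.11%, 2.62% and 6.72% on day 7, 4.90%, 4.67%, 6.04%, 2.57% and 4.02% on day 14, and 4.83%, 4.79%, 6.00%, 3.64% and 4.23% on day 28. The groups overlapped on each day at this dose, and no difference passed (2.25, 1.03 and 1.23 percentage points, adjusted exact p = 0.0816, 0.125 and 0.0816). Once the within-group slope on the library score was taken off the log2 share, the 1 mg/kg difference on day 7 passed (0.83 on the log2 scale, adjusted exact p = 0.0476), whereas that on day 14 was 0.06 (adjusted exact p = 0.77). Mean scores on day 14 were -0.61 in vehicle and 0.47 at 1 mg/kg. Single libraries also decided the later days at 1 mg/kg: without its replicate 4 the day 14 difference was 1.49 percentage points (adjusted exact p = 0.0179), and without vehicle replicate 3 that of day 28 was 1.51 points (adjusted exact p = 0.0476).

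Ordered by mean share, the 3 vehicle groups came lowest and the groups at 5 mg/kg on day 28 and at 15 mg/kg on days 7, 14 and 28 came highest, with the other groups between 4.44% and 5.47%. Each group overlapped its neighbour in that order. Between vehicle groups of different days no transcript passed: edgeR called none of the 12 between day 14 or day 28 and day 7 (0% and 0.0164% of all 12167 genes were called higher). At an unadjusted p under 0.05 Mt-nd6 alone was higher on day 14 (1.64% of all genes). Its log2 fold change there was 1.40, with group means of 22.6 CPM on day 7 and 59.4 CPM on day 14.

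Counted gene by gene, the same direction held for nearly every transcript. With edgeR's quasi-likelihood test and Benjamini-Hochberg adjustment over 12167 genes, 15 mg/kg raised 12 of 12 tested members on day 7 (6.78% of all genes were called higher), 11 of 12 on day 14 (12.7%) and 12 of 12 on day 28 (8.88%), and none fell. Their median log2 fold changes were 1.16, 1.12 and 1.72, beside medians over all genes of -0.03, 0.04 and -0.01. With the score as a covariate the counts were again 12, 11 and 12, where 21.3%, 21.7% and 18.4% of all genes were called higher. In a fit of the day's 20 libraries alone, 6 of 12 passed on day 7. Leaving out single libraries gave 8 to 12 on that day; the calls lost were those of Mt-co2, Mt-co3, Mt-cyb and Mt-nd3, for which the adjusted p was highest without replicate 5 at 15 mg/kg (0.0646 to 0.166 by edgeR), and of Mt-nd6 without replicate 4 (0.0625). At 5 mg/kg, 1 member rose on day 7 (3.27% of all genes), 0 on day 14 (5.47%) and 8 on day 28 (5.63%) by edgeR, and with the score 2, 1 and 10 did (10.1%, 15.8% and 13.4% of all genes). DESeq2 and limma-voom each called 1 member on day 14. Shares of all genes called were computed only for the main edgeR fit and the fit with the score. At 1 mg/kg edgeR, DESeq2 and limma-voom called 0 members on each day (0.0904%, 3.76% and 1.85% of all genes by edgeR), although 8 of 12 were higher at an unadjusted p under 0.05 on day 7 (2.84% of all genes) and 0 on days 14 and 28 (14.4% and 8.83%). The members share libraries, and in places a precursor, so their counts are not independent, and each vehicle group serves as control for 3 doses.

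**Figure D2:**
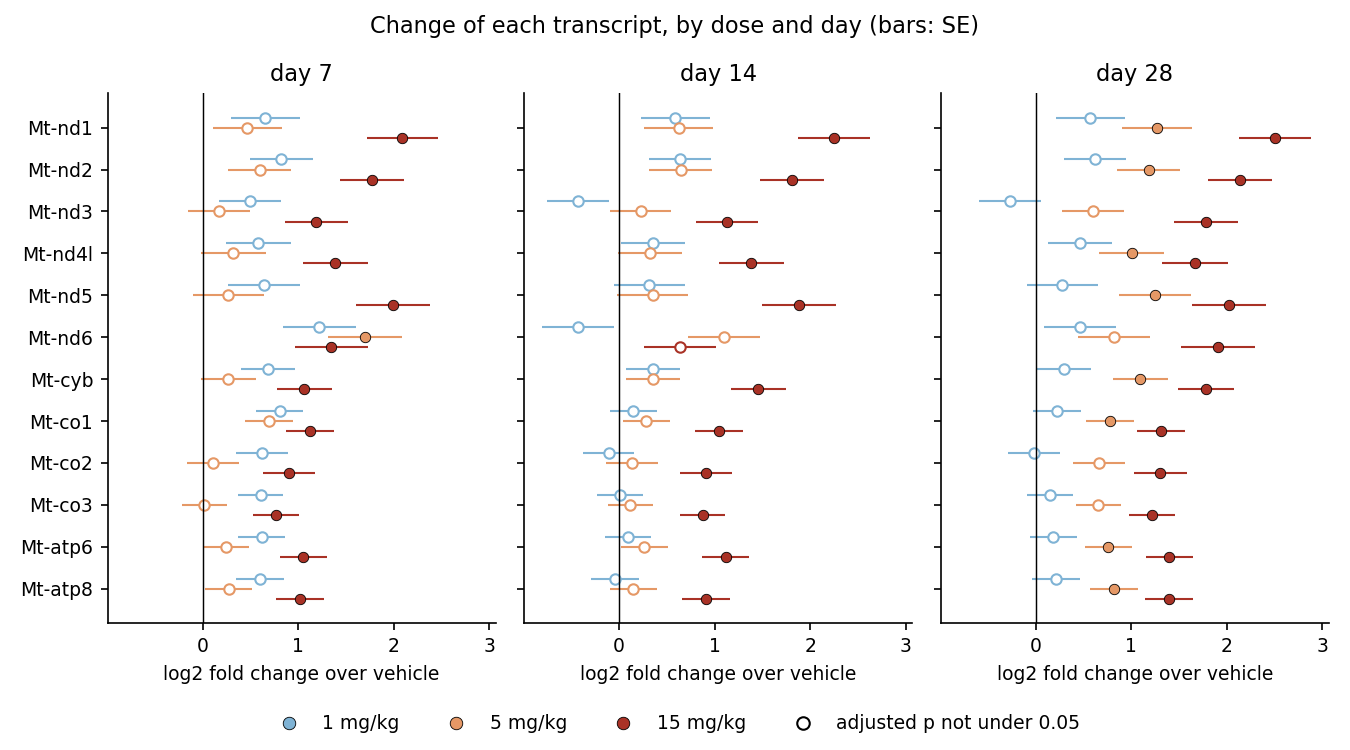
Log2 fold change over vehicle of the same day (horizontal axis) for each of the 12 tested transcripts (vertical axis), with bars of 1 SE from the edgeR fit; filled points passed at an adjusted p under 0.05, open points did not. At 15 mg/kg all points but Mt-nd6 on day 14 are filled, and Mt-nd1 lies farthest right, at 2.09, 2.24 and 2.5.

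Mt-nd1, Mt-nd2 and Mt-nd5, all of complex I, had the 3 highest fold changes at 15 mg/kg on each day. Mt-nd1, which encodes a core membrane subunit of complex I next to the ubiquinone site, stood at 1351, 4617, 1192, 1643 and 4576 CPM in day 7 vehicle libraries and at 8113, 5627, 3381, 17569.5 and 22246 CPM at 15 mg/kg. On day 14 it stood at 2643, 3071, 2917, 2201 and 1903 CPM in vehicle and at 9450.4, 6653, 15936, 11169.9 and 17128 CPM at 15 mg/kg. On day 28 the values were 1987, 2426, 3761, 3195 and 2189 CPM in vehicle and 12196, 21892, 9077, 15389 and 18221 CPM at 15 mg/kg. The groups did not overlap on days 14 and 28, and on day 7 a single treated library, replicate 3, lay within the vehicle range. Log2 fold changes were 2.09 ± 0.37, 2.24 ± 0.37 and 2.5 ± 0.38 (SE; edgeR adjusted p = 4.92e-05, 1.05e-05 and 1.59e-06).

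Mt-nd2 and Mt-nd5, which encode antiporter-like subunits of the proton-pumping arm of complex I, followed closely. Mt-nd2 went from 2346, 3081, 3989, 3653 and 2757 CPM in vehicle to 11634, 18719, 9538, 13318 and 16469 CPM at 15 mg/kg on day 28, with no overlap, and its log2 fold changes were 1.77, 1.81 and 2.14 on days 7, 14 and 28 (SE 0.33 to 0.34). Mt-nd5 went from 891, 1009, 1873, 1601 and 923 CPM to 4951, 6508, 3716, 4760.4 and 5604 CPM on day 28, again with no overlap, and its log2 fold changes were 1.99, 1.88 and 2.02 (SE 0.38 to 0.39). Both passed on every day by edgeR, with adjusted p at or below 0.000236.

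Mt-nd4l and Mt-nd3, short transcripts of complex I, also rose. Mt-nd4l, whose reading frame overlaps the start of Mt-nd4, was 161 ± 49.7 CPM in vehicle and 511 ± 82.8 CPM at 15 mg/kg on day 28 (SD, n = 5), and its log2 fold changes were 1.39, 1.38 and 1.67. Mt-nd3, which encodes a subunit with a loop that moves between active and resting forms of the complex, was 222, 164, 176, 233 and 178 CPM in vehicle and 603, 1302, 269.3, 482 and 687 CPM at 15 mg/kg on day 28, with no overlap. Its log2 fold changes were 1.19, 1.13 and 1.78 (SE 0.33). Both transcripts passed on all 3 days by edgeR.

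Mt-cyb, cytochrome b of complex III, had fold changes that were higher on each later day. The same held for Mt-nd1, Mt-nd2, Mt-co3, Mt-atp6 and, by a narrow margin, Mt-co2. Mt-cyb was 3423 ± 1892 CPM in vehicle and 7155 ± 2815 CPM at 15 mg/kg on day 7, and 3345 ± 1051 against 11538 ± 3019 CPM on day 28 (SD, n = 5). Log2 fold changes were 1.06, 1.46 and 1.79 on the 3 days. The change of the 15 mg/kg effect from day 7 to day 28 was tested for every member as an interaction in edgeR, and 0 of 12 passed (0% of all genes), nor did any have an unadjusted p under 0.05 there. The 12 interaction estimates lay between 0.03 and 0.72, and with the score as covariate between -0.22 and 0.68, with Mt-nd5 the 1 below 0.

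All 5 transcripts of complexes IV and V rose at 15 mg/kg. Mt-co1, the catalytic subunit of cytochrome c oxidase, stood at 6923, 18105, 6549, 10386 and 19345 CPM in vehicle and 26058, 21030.0, 19183, 32745 and 34327 CPM at 15 mg/kg on day 7, where replicate 3 at 15 mg/kg fell just below the highest vehicle library. On day 14 it was 13278, 13806, 14442, 14048 and 14413 CPM in vehicle against 22526, 24600.4, 39276, 28792 and 29331 CPM, and on day 28 12604, 12215, 16846, 16219 and 11287 CPM against 38228, 44096, 24222, 30835 and 33936 CPM. Neither of the later days showed overlap. Log2 fold changes were 1.12 ± 0.25, 1.05 ± 0.25 and 1.31 ± 0.25 (SE; edgeR adjusted p = 0.000958, 0.00149 and 9.55e-05). Mt-co2, which receives electrons from cytochrome c, changed by 0.91, 0.91 and 1.30, and Mt-co3, the third core subunit, by 0.77, 0.87 and 1.22. Mt-atp6, the membrane subunit through which ATP synthase conducts protons, changed by 1.05, 1.12 and 1.40, and Mt-atp8, whose reading frame overlaps that of Mt-atp6, by 1.02, 0.91 and 1.39. Each passed by edgeR on every day. Ranges did not overlap on day 14, and on day 28 Mt-co2 alone overlapped. How many of all genes had ranges without overlap in these comparisons was not counted.

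**Figure D3:**
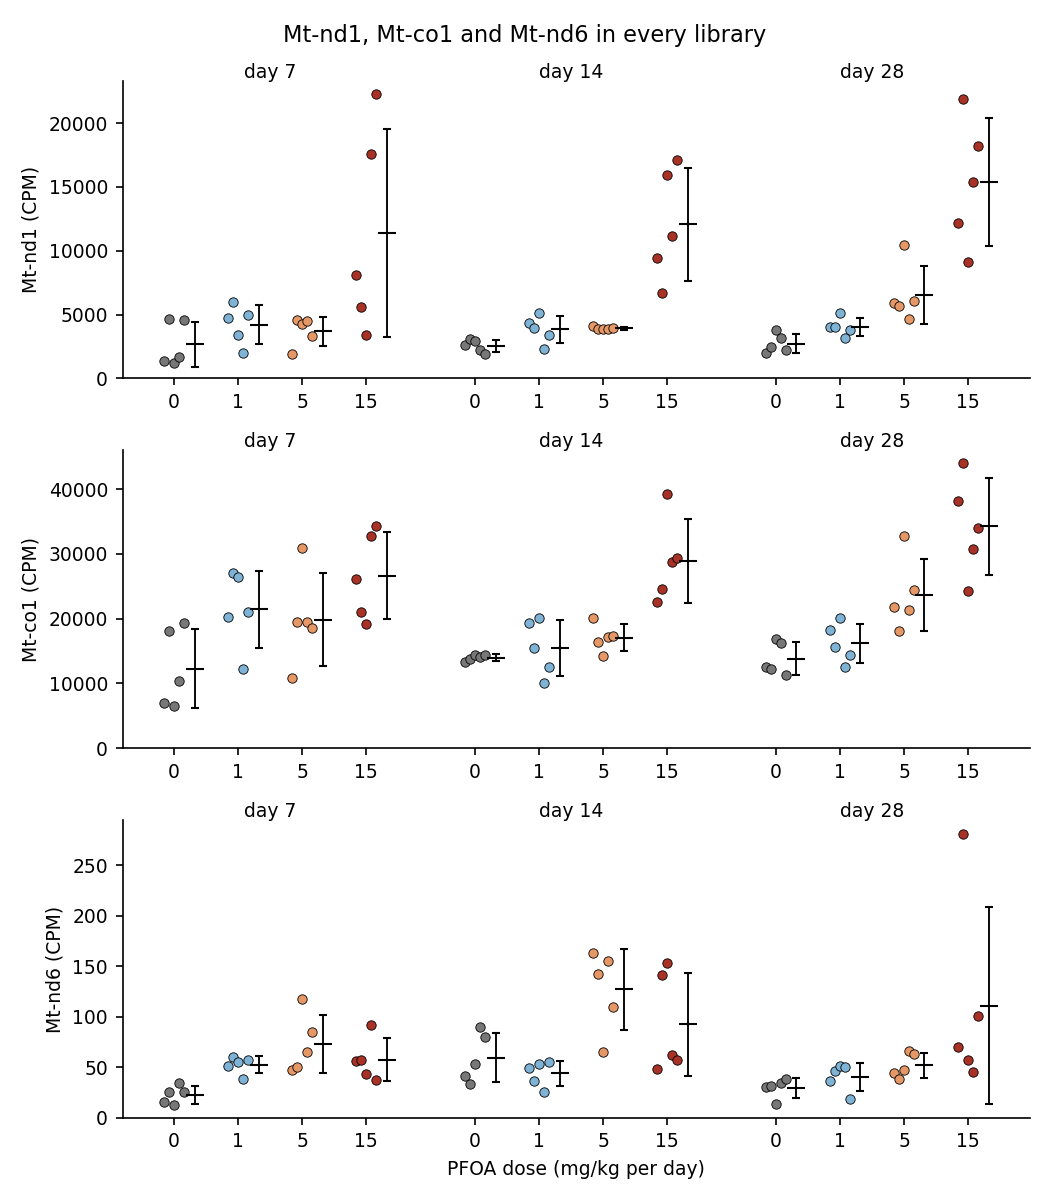
CPM of Mt-nd1, Mt-co1 and Mt-nd6 (vertical axes, each starting at 0) in every library by dose (mg/kg per day) and day, with the mean ± SD of 5 beside the points. Mt-nd1 and Mt-co1 are highest at 15 mg/kg on each day by mean, while Mt-nd6 has its highest group mean on days 7 and 14 at 5 mg/kg and owes much of its day 28 mean to 1 library at 281.1 CPM.

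Mt-nd6 did not follow the rest. It was 16.1, 25.3, 12.2, 34.1 and 25.1 CPM in day 7 vehicle libraries, and every PFOA library of that day lay above them: 51.5, 60.2, 55.4, 38.6 and 57.0 CPM at 1 mg/kg, 47.8, 50.1, 117, 65.5 and 85.0 CPM at 5 mg/kg and 55.8, 57.3, 43.8, 92.3 and 37.5 CPM at 15 mg/kg. The log2 fold changes were 1.22 ± 0.38, 1.69 ± 0.39 and 1.35 ± 0.38 (SE), of which those at 5 and 15 mg/kg passed by edgeR (adjusted p = 0.376, 0.00287 and 0.0111), so that Mt-nd6 was the member called at 5 mg/kg on day 7. On day 14 it was 41.0, 33.4, 53.3, 89.6 and 79.9 CPM in vehicle, 163, 142, 65.5, 155 and 110.0 CPM at 5 mg/kg and 47.8, 142, 153, 62.0 and 56.9 CPM at 15 mg/kg. The groups overlapped there, and neither dose passed by edgeR (log2 fold changes 1.10 and 0.64, adjusted p = 0.051 and 0.23). With the score the 5 mg/kg change on day 14 passed (1.05, adjusted p = 0.0157). The vehicle mean of day 14 (59.4 CPM) lay well above that of day 7 (22.6 CPM). It was near the day 7 means at 1 and 15 mg/kg (52.5 and 57.4 CPM) and below that at 5 mg/kg (73.1 CPM). The day 7 changes of Mt-nd6 were therefore of the size of a difference between vehicle groups.

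On day 28 Mt-nd6 was 30.1, 31.1, 13.2, 34.7 and 38.1 CPM in vehicle and 70.0, 281.1, 57.6, 45.1 and 100.4 CPM at 15 mg/kg, with no overlap. Its log2 fold change was 1.91 ± 0.39 (SE, edgeR adjusted p = 0.000213), and it was 1.21 with an adjusted p of 0.00991 without replicate 2 at 15 mg/kg. Across libraries of a group, Mt-nd6 had a median correlation of 0.34 with the other members, while Mt-nd3 had one of 0.52 and the other 10 had medians from 0.81 to 0.92 (description over 60 libraries that share depth and library score). Along the score, Mt-nd6 and Mt-nd3 went down (within-group r of -0.38 and -0.40) whereas the others went up (0.23 to 0.61). Whether strand was used in counting is not given in the sources used here, so reads of Mt-nd6 and reads from the opposite strand of the same stretch cannot be told apart.

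Mt-nd4, the antiporter-like subunit encoded between Mt-nd4l and Mt-nd5, had 12 reads in all. They fell in 4 libraries, 9 of them in replicate 5 at 15 mg/kg on day 28, and none was found in 174039744 reads of the vehicle libraries, where a count of 0 allows up to 0.0172 CPM without TMM scaling (3 counts, counting error only). The transcript of its neighbour Mt-nd4l, with which it shares a messenger RNA in mammals, had between 424 and 9767 reads per library. How reads that match several genes or nuclear copies of mitochondrial DNA were counted is not given in the sources used here.

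The members did not keep their proportions. The reads on Mt- rows were therefore set against each other, as the percent of all Mt- reads, which does not depend on how the rest of the library is scaled. On day 28, Mt-nd1 took 7.48 ± 0.63% of Mt- reads in vehicle and 13.8 ± 1.80% at 15 mg/kg (SD, n = 5), Mt-nd2 took 8.83 ± 0.79% and 12.7 ± 0.98%, and Mt-nd5 took 3.42 ± 0.49% and 4.7 ± 0.21%, without overlap for any of them. Mt-co1 took 38.7 ± 1.61% and 31.5 ± 3.22%, Mt-co3 8.75 ± 0.46% and 6.64 ± 0.24%, and Mt-atp6 14.6 ± 0.75% and 12.5 ± 0.77%, also without overlap. Exact permutation tests adjusted over 36 (12 members on 3 days) gave 3 higher and 4 lower on day 28 (Mt-atp8 being the fourth, adjusted p = 0.0451), with adjusted p = 0.022 for the 6 just named. On day 14, Mt-nd1, Mt-nd2 and Mt-nd5 were higher and all 5 transcripts of complexes IV and V lower. On day 7, Mt-nd2 and Mt-nd5 were higher and Mt-co3 and Mt-atp6 lower, and Mt-nd1 missed at an adjusted p of 0.0519 (7.37 ± 1.15% against 12.4 ± 4.38%). These percentages sum to a whole, so a higher part for some members forces a lower part for others. Expressed as centred log-ratios, where the exact test was adjusted in the same way, 0 members were higher and 3 lower on day 7, while the counts of days 14 and 28 stayed at 3 and 5, and at 3 and 4. These tests made no allowance for the library score. In the edgeR fit with the score, log2 slopes per SD of score were 0.20, 0.18 and 0.33 for Mt-nd1, Mt-nd2 and Mt-nd5. For Mt-co1, Mt-co3 and Mt-atp6 they were 0.08, 0.10 and 0.09. The part of the score in these proportions was not tested.

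**Figure D4:**
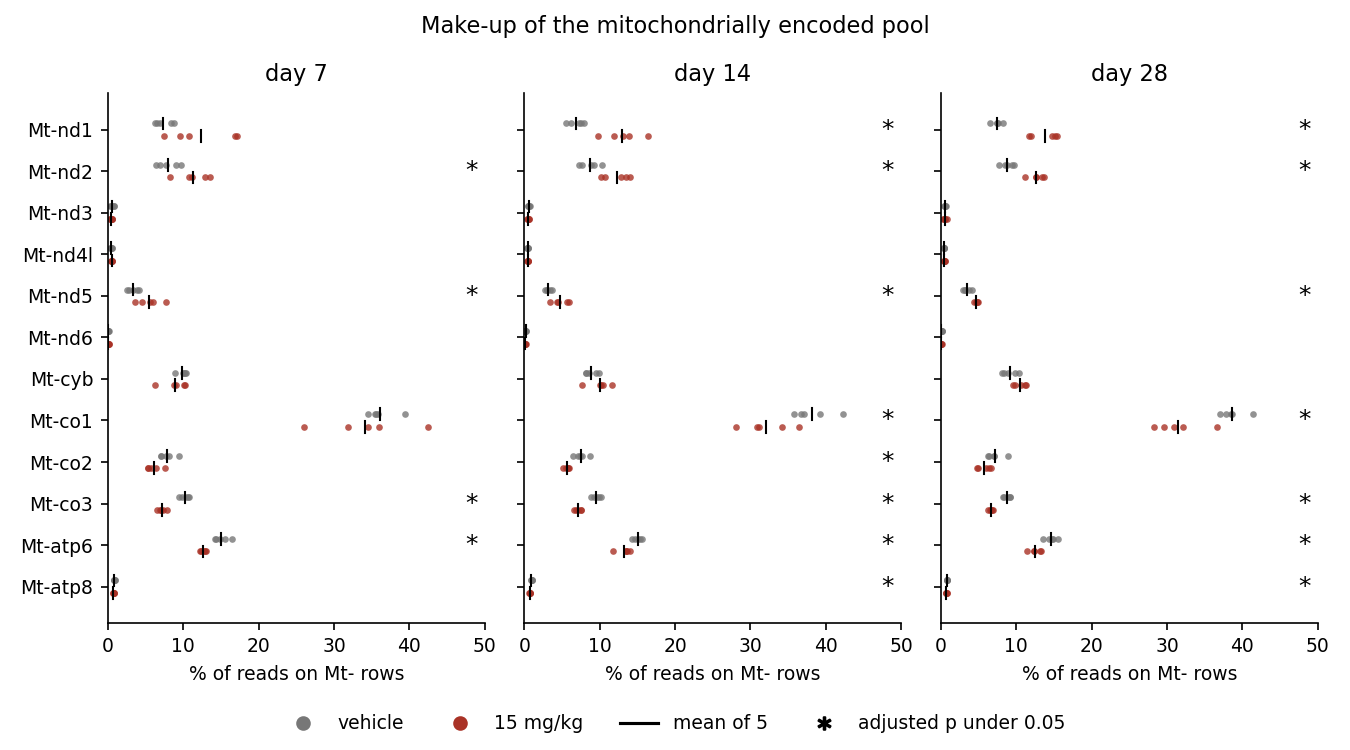
Percent of all Mt- reads (horizontal axis) taken by each transcript (vertical axis) in the 5 vehicle and 5 libraries at 15 mg/kg of each day; points are single rats, black lines are means, and asterisks mark an adjusted p under 0.05 by the exact test. Mt-nd1, Mt-nd2 and Mt-nd5 shift to the right and Mt-co3 and Mt-atp6 to the left, and read percentages also rise with transcript length, so transcripts are compared between groups and not with each other.

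Summed by complex, the 7 complex I rows held 19.9 ± 3.0%, 19.9 ± 2.3% and 20.8 ± 1.46% of Mt- reads in vehicle on days 7, 14 and 28, and 30.3 ± 7.72%, 31.1 ± 4.1% and 32.3 ± 2.63% at 15 mg/kg. Complex IV rows went from 54.3%, 55.2% and 54.6% to 47.4%, 44.9% and 43.9%, and complex V rows from 15.9%, 15.9% and 15.4% to 13.4%, 14.0% and 13.2%. At 1 mg/kg, where the pool as a whole had not passed, the complex I part was 20.9 ± 3.25% on day 7, but on day 14 it was 23.2% to 26.5%, above the vehicle range of 16.9% to 22.0%, and on day 28 it was 23.5% to 25.7%, above 18.3% to 22.1%. At 5 mg/kg the day 14 and day 28 ranges, 22.8% to 25.2% and 23.1% to 28.9%, also lay above vehicle. No test was made of these sums. Mean library scores of the 1 mg/kg groups were also higher than in vehicle on those days (0.47 against -0.61, and 0.78 against -0.23), and the part of the score in the 1 mg/kg values was not tested. The number of Mt-nd1 reads per Mt-co1 read was also higher at 15 mg/kg by median, with 0.195, 0.199 and 0.197 in vehicle and 0.311, 0.406 and 0.496 at 15 mg/kg on days 7, 14 and 28.

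Steps between neighbouring doses were mostly not resolved for single transcripts. From 5 to 15 mg/kg on day 7, Mt-nd1 and Mt-nd5 rose (log2 fold changes 1.62 and 1.72, both adjusted p = 0.0311 by edgeR, 0.164% of all genes called higher), and with the score 7 members did (4.06% of all genes). Both calls were lost without the 3 libraries of lowest score and in a fit of the day's libraries alone (0 called in each). The same step gave 0 calls by edgeR on day 14 or day 28 (0% and 0.0329% of all genes), where 11 of 12 members were higher at an unadjusted p under 0.05 on each day (7.6% and 1.26% of all genes). From 1 to 5 mg/kg, Mt-nd6 rose on day 14 (1.53 ± 0.38, SE, adjusted p = 0.00926, 6.88% of all genes) and no other member passed on any day (1.5% on day 7 and 0.222% on day 28).

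Treated as 1 row, the summed Mt- reads had log2 fold changes of 1.26 ± 0.27, 1.30 ± 0.27 and 1.6 ± 0.27 at 15 mg/kg (SE; edgeR adjusted p = 0.000556, 0.000261 and 1.19e-05). At 5 mg/kg on day 28 the sum rose by 0.88 ± 0.27 (adjusted p = 0.0225). On days 7 and 14 the sum at 5 mg/kg did not pass by edgeR (0.47 and 0.34, adjusted p = 0.362 and 0.492), although the day 14 share had passed the exact test. The 8 members called at 5 mg/kg on day 28 were Mt-nd1 (log2 fold change 1.27), Mt-nd5 (1.25), Mt-nd2 (1.18), Mt-cyb (1.09), Mt-nd4l (1.00), Mt-atp8 (0.82), Mt-co1 (0.78) and Mt-atp6 (0.76). The share difference of that group passed the exact test in all 10 omissions of 1 library (lowest 2.99 percentage points, highest adjusted p = 0.0357). The edgeR calls leaned on single libraries, most on replicate 3 at 5 mg/kg, which had a share of 10.3%, against 5.56% to 7.53% in the other 4. Without it 1 member was called (Mt-cyb, 0.97, adjusted p = 0.0375) and the sum stood at 0.73 with an adjusted p of 0.11; without vehicle replicate 1, 2 or 5 its adjusted p was 0.0663, 0.0574 and 0.0659. Calls also fell to 2, 3 and 3 members without vehicle replicate 1, 2 or 5, to 4 without replicate 1 at 5 mg/kg and to 5 without replicate 5.

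Within groups, the Mt- share moved with measures of the library. Over 60 libraries taken as deviations from their group mean, log2 share correlated with the library score (Pearson r = 0.548, Spearman rho = 0.545, adjusted permutation p = 0.00028 and 0.00072 over 4 measures), with log2 total reads (r = 0.315, rho = 0.419, adjusted p = 0.0401 and 0.00343) and with the percent of reads on cytosolic ribosomal protein genes (r = -0.441, rho = -0.453, adjusted p = 0.00136 and 0.00306). It did not pass for the percent taken by the 10 most abundant other rows (r = 0.228, rho = 0.207, adjusted p = 0.149 and 0.167). Without the 2 libraries farthest from the median of each measure, r was 0.507, 0.332, -0.481 and 0.176. The relation with the score did not hold for every library at 15 mg/kg. On day 28 replicate 2 had the lowest score of its group (-1.35) and the highest share (12.8%). On day 7 replicate 2 had the highest score (0.97) and a share of 6.31%, while replicate 5 had 13.8% at -0.23. Replicate 5 on day 14 (0.90, 11.7%) and replicate 3 on day 7 (-0.66, 4.55%) went with the relation. It was not tested by dose, and the fits with the score use a common slope for all groups. Mean scores at 15 mg/kg and in vehicle were -0.04 and -0.07 on day 7, 0.16 and -0.61 on day 14, and 0.44 and -0.23 on day 28, and the part of these in the Mt- share was not tested beyond the fits with the score as a covariate.

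**Figure D5:**
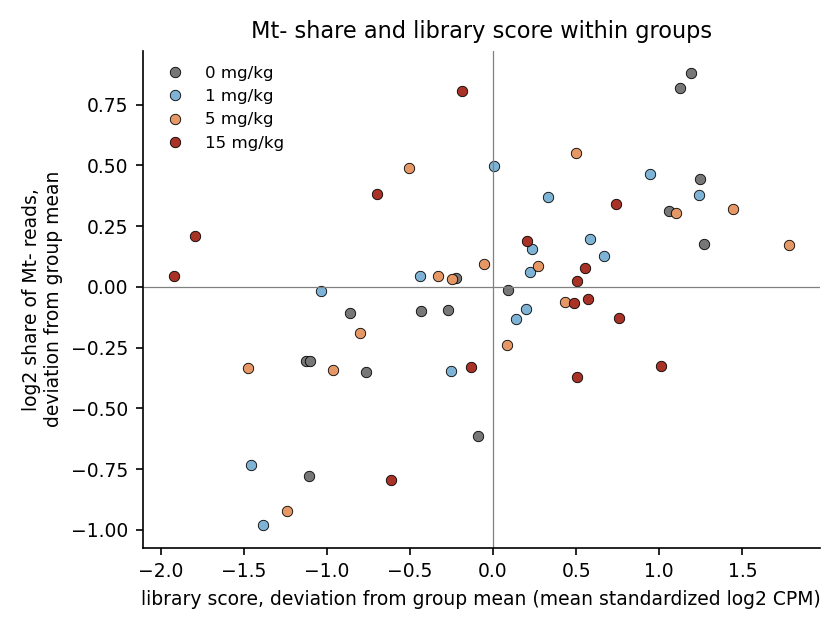
Deviation of each library's log2 Mt- share from its group mean (vertical axis) against the deviation of its library score from the group mean (horizontal axis, mean standardized log2 CPM), coloured by dose. The 60 points slope upward with r = 0.548 over all doses together. Several 15 mg/kg points lie off that slope, among them the library of lowest score on day 28, which has the highest share of its group.

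Nuclear genes for the same complexes did not move as a block. At 15 mg/kg on day 28, 3 of 34 tested nuclear complex I genes rose and 0 fell (2 were lower at an unadjusted p under 0.05), with a median log2 fold change of -0.43, beside 8.88% of all genes called higher, 8.31% called lower and a median of -0.01. edgeR called 0 of 9 complex III genes and 0 of 10 complex IV genes (1 and 0 at an unadjusted p under 0.05), and of 15 complex V genes 1 rose; the medians were -0.33, -0.36 and -0.44. With the score as covariate, where 18.4% of all genes were called higher and 17% lower, 9 of 34 complex I genes rose and 4 fell, 4 of 9 complex III, 1 of 10 complex IV and 4 of 15 complex V genes rose, 1 complex V gene fell, and the medians were 0.07, 0.12, 0.13 and 0.08. Ndufs1, the iron-sulfur subunit that takes electrons from the flavin site of complex I, rose by 1.21 ± 0.35 (SE, adjusted p = 0.0106) and Ndufa10 by 0.51 ± 0.13 (adjusted p = 0.00282). Atp5f1a, the α subunit of ATP synthase, rose by 0.62 ± 0.15 (adjusted p = 0.00147), and Atp5f1b, the β subunit, stood at 0.46 ± 0.17 (adjusted p = 0.0545) and passed with the score (0.61, adjusted p = 1.64e-06). Uqcrc1 and Uqcrc2, core proteins of complex III, stood at 0.33 and 0.38 (adjusted p = 0.202 and 0.0772), and with the score both passed (0.46 and 0.51, adjusted p = 0.00034 and 1.48e-05). Cox6b1 and Cox7b of complex IV stood at -0.37 and -0.83 (adjusted p = 0.525 and 0.503). These 2 values rested on single libraries and on the score, with no call in any fit: they were -0.69 and -2.05 without replicate 2 at 15 mg/kg, -0.19 and -0.31 without vehicle replicate 1, and -0.04 and -0.09 with the score. Complex II has no mitochondrially encoded subunit, and its Sdha and Sdhb stood at log2 fold changes of 0.45 and 0.37 (adjusted p = 0.265 and 0.144), with 0 of 4 genes called by edgeR and 1 at an unadjusted p under 0.05. With the score 1 of 4 was called, Sdhb (0.52, adjusted p = 1.01e-05).

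Among nuclear genes that serve mitochondrial RNA, a few changed. Lrpprc, which binds and stabilises mitochondrial messenger RNAs, had 82.2 ± 40.2 CPM in vehicle and 252.3 ± 83.4 CPM at 15 mg/kg on day 28 (SD, n = 5). It rose by 1.62 ± 0.45 on the log2 scale (SE, edgeR adjusted p = 0.00744), and Fastkd1, of a family of mitochondrial RNA-binding proteins, rose by 0.86 ± 0.17 (adjusted p = 0.000126). These were the 2 called of 16 RNA processing and stability genes, beside 8.88% of all genes called higher, and 3 and 8 of them rose on days 7 and 14 (6.78% and 12.7% of all genes), with none falling. With the score 10 of 16 rose on day 28 (18.4% of all genes). Of 16 transcription and replication genes, Tfb1m, an rRNA methyltransferase of mitochondria, and Mgme1, a nuclease of mitochondrial DNA replication, rose by 0.51 and 0.56 (adjusted p = 0.0354 and 0.016), and with the score 8 of 16 rose and 1 fell. The Mgme1 call ended without vehicle replicate 3 (adjusted p = 0.0588) and that of Tfb1m without vehicle replicate 2 (adjusted p = 0.129); leaving out single libraries left the first in 8 of 10 fits and the second in 3 of 10. Top1mt, a mitochondrial topoisomerase, stood at 0.38 (adjusted p = 0.0793). Polg2, the accessory subunit of the mitochondrial DNA polymerase, fell by 2.77 on the log2 scale, from 109 ± 77.1 to 16.1 ± 14.0 CPM (adjusted p = 0.00105). Of 10 regulators of mitochondrial biogenesis, 1 rose, which is close to the 8.88% of all genes called higher. It was Ppargc1b, a coactivator of genes for mitochondrial proteins, which went from 0.502 ± 0.381 to 2.01 ± 0.859 CPM, both low levels (1.97 ± 0.58, adjusted p = 0.0124). That call ended without vehicle replicate 5 (adjusted p = 0.0513). Ppara itself stood at 1.32 ± 0.53 (adjusted p = 0.0752) and passed with the score (0.84, adjusted p = 0.00705), in DESeq2, with the libraries of the day alone and without low-score libraries; Pprc1 stood at 0.42 and Gabpa at 0.33 (adjusted p = 0.532 and 0.287).

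Of 19 mitochondrial mass markers (enzymes and carriers of the matrix and membranes encoded in the nucleus), 9 rose and 1 fell on day 28 at 15 mg/kg, with a median of 0.37 (8.88% of all genes were called higher and 8.31% lower). With the score 14 rose and 1 fell (18.4% and 17% of all genes). Their summed level did not rise, with 6476 ± 1262 CPM in vehicle and 5681 ± 629 CPM at 15 mg/kg (SD, n = 5). That sum includes Cps1, with a mean of 2454 CPM over all libraries, which is also on the hepatocyte marker list. Slc25a5, an ADP/ATP carrier, had 122 ± 11.9 CPM in vehicle and 190 ± 8.27 CPM at 15 mg/kg (SD, n = 5), and rose by 0.63 ± 0.10 on the log2 scale (SE, edgeR adjusted p = 1.35e-06). Of 13 quality control and stress genes 2 rose, against the same 8.88% of all genes: Afg3l2, a protease of the inner membrane, by 0.70 ± 0.12 and Dnm1l, which divides mitochondria, by 0.87 ± 0.19. With the score 5 rose and 1 fell. Some of these lists hold known targets of PPARα.

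Markers of the liver's cell types moved in the same comparison. At 15 mg/kg on day 28, 5 of 10 hepatocyte markers fell and 0 rose, beside 8.31% of all genes called lower (summed level 132586 to 216263 CPM in vehicle and 102547 to 146235 CPM at 15 mg/kg), among them Tf, transferrin, by 1.2 on the log2 scale. Of 11 Kupffer cell markers 4 fell (355 to 681 against 212 to 371 CPM), among them C1qa and C1qb, and of 11 tested stellate cell and fibroblast markers 2 fell, Des and Hgf. With the score, where 17% of all genes were called lower, 9 hepatocyte, 5 Kupffer cell and 4 stellate cell and fibroblast markers fell. On days 7 and 14, when 7.2% and 10.2% of all genes were called lower, 7 and 6 hepatocyte markers and 2 and 9 Kupffer cell markers fell. By edgeR 0 of 11 endothelial, 0 of 4 cholangiocyte and 0 of 4 erythroid markers were called (1, 2 and 0 at an unadjusted p under 0.05), and 1 of 8 lymphocyte markers fell. Erythroid markers summed to 37.7 to 1083 CPM in vehicle and 21.1 to 211 CPM at 15 mg/kg. The part of these shifts in the Mt- share was not tested.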

How the data were processed

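RNA of 60 rat livers was counted per gene by the authors. The deposited table holds whole-number counts of reads for 32883 rows, without normalization. Per the submitters' processing notes, the tools were bcl2fastq 2.20.0.422, Trimmomatic 0.33, STAR 2.5.2b and featureCounts of Subread 1.6.0, with the build Rnor_6.0. The annotation release, the strand setting and the treatment of reads with several matches are not given in the sources used here. Depth ran from 7965497 to 24770119 counts, so single transcripts of this abundance are limited by the spread between rats. Rows without a gene name (10602) held 1.39% of counts and are genes with an identifier only and were kept. No 2 libraries of a group agreed within sampling noise (lowest chi-square per degree of freedom 17.3). Replicate numbers follow accession order and pair nothing.

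Counts were filtered with filterByExpr (minimum count 10, minimum total 15; 12167 genes left), scaled by TMM and fitted with edgeR 4.0.16 (robust quasi-likelihood, R 4.3.3) with 12 group means over 60 libraries. Every adjusted p for a gene is Benjamini-Hochberg over all 12167 genes, with a threshold of 0.05. CPM uses TMM-scaled library sizes. Shares of reads were compared by two-sided exact permutation over 252 splits, adjusted over 9 comparisons, and the composition of the Mt- reads likewise, adjusted over 36. Within-group relations used 100000 permutations in Python 3.11.15. The library score is the mean standardized log2 CPM of the 500 genes with the largest loadings on the leading axis of deviations from group means. As a covariate it lowered the biological coefficient of variation from 0.388 to 0.196. Because the score was made from the leading axis of these same libraries, that drop follows in part from its making. Its genes were standardized over all 60 libraries and not within groups, so it can also carry effects of dose. The test was tried on simulated data. The floor of 3 counts covers counting error only.

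Every Mt- row is named. Of each gene list, the 2 tested members of lowest p in the day 28 comparison of 15 mg/kg were to be named (4 for the transcription and regulator lists), except that some marker lists are given by counts only and that 2 genes this rule and the rule on likeness chose are not reported here. The 19 lists hold 297 entries, of which 279 were found and 259 tested. The members and lists were chosen with earlier results of these data known. Alternatives were DESeq2 1.42.0, limma-voom (limma 3.58.1), DESeq2 size factors, TMM without Mt- rows, no filter, a fold of at least 1.5, the day's libraries alone, the score, omission of low-score libraries and of each library in turn.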

Additional observations from a re-analysis of the deposited data

Results flagged for a closer look

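Of the 156 sets of 5 libraries tested (the Mt- share and the 12 tested transcripts in each of 12 groups), 7 held 1 library whose gap to its nearest neighbour exceeded 0.71 of the range, Dixon's limit for 5 values. By chance about 1 in 20 sets would do so, and 7 of 156 is not above that rate. At 5 mg/kg on day 28, replicate 3 had Mt-nd1 at 10422 CPM (4668 to 6032 in the others) and Mt-nd3 at 548 CPM (208 to 277.98). It is also the library with a 10.3% Mt- share. Replicate 2 at 15 mg/kg on day 28 had Mt-nd6 at 281.1 CPM (45.1 to 100.4). At 1 mg/kg, replicate 3 of day 28 had Mt-cyb at 5585 CPM (3519 to 3993) and replicate 3 of day 7 had Mt-nd3 at 433 CPM (172 to 241). At 5 mg/kg on day 14, replicate 1 had Mt-co2 at 2239 CPM (3055 to 3347) and replicate 5, whose library score was -2.33, had Mt-nd4l at 149.7 CPM (204 to 223).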

How the results depend on the processing

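Over 118 results, no value recomputed under an alternative changed direction. Of these values, 1191 kept their side of the threshold or stayed within 1.5 times for counts. A further 37 lost a call, 28 gained one and 34 counts or untested values moved further. Counts have no direction, and medians over genes and interaction estimates were not among the 118. With the score, the median log2 fold change of the 12 members at 1 mg/kg on day 14 went from 0.12 to -0.03. The medians of nuclear complex I, III, IV and V genes at 15 mg/kg on day 28 also changed sign, as did the Mt-nd5 interaction estimate. At 15 mg/kg on days 14 and 28 the counts of members called, the summed fold change and the share difference kept their calls under every alternative run. Members called at 5 mg/kg on day 7 (1) were 2 under DESeq2, the score and omission of low-score libraries, and 1 to 2 without single libraries. Those at 15 mg/kg on day 7 (12) were 6 with the day's libraries alone and 8 to 12 without single libraries. Those at 5 mg/kg on day 14 (0) were 1 under DESeq2, limma-voom, the score and omission of low-score libraries, and 0 to 1 without single libraries. Those at 5 mg/kg on day 28 (8) were 1 to 9 without single libraries, where the summed log2 fold change (0.88) ran from 0.73 to 0.98. Members called from 5 to 15 mg/kg on day 7 (2) were 7 with the score and 0 with the day's libraries or without low-score libraries, on day 14 (0) they were 2 with the day's libraries, and from 1 to 5 mg/kg on day 28 (0) they were 1 with the score. The share difference at 15 mg/kg on day 7 (5.28 percentage points) was 4.85 with TMM scaling (adjusted exact p = 0.0571) and 3.95 to 6.26 without single libraries. At 1 mg/kg it was 0.83 on the score-adjusted log2 scale on day 7, and without single libraries 0.63 to 1.49 points on day 14 and 0.903 to 1.51 on day 28. Members whose part of the Mt- reads differed at 15 mg/kg were 4 on day 7, with 7 without low-score libraries and 2 to 6 without single libraries, and 8 on day 14, with 5 to 9. The causes of these changes were not tested. Apart from the fit with the score, the counts of members called under alternatives have no share of all genes to set beside them. No paired analysis was possible because the labels give no replicate numbers and each liver came from a different rat. Mt-nd4 had too few reads to be tested, and why was not tested.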

Other observations

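For tested genes outside the members with a mean of at least 1 CPM, among the group means most like those of the summed Mt- level over the 12 groups (log2 CPM, Pearson) were those of Cpsf3 (r = 0.958), App (0.940), LOC306766 (0.932) and Dpysl3 (0.931). Over the 60 libraries as deviations from their group means, the closest were Nxf1 (0.707), RGD1309621 (0.606), Pnisr (0.603), a gene without a name in the table (0.593) and Ogt (0.581). Both are descriptions of libraries that share depth and library score.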
